A study of Drosophila melanogaster with 9 samples.

Results

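Chitin genes were followed in whole *Drosophila melanogaster* larvae: the genes that make chitin, bind it, arrange it and break it down. They were chosen by symbol: every gene named Cht or Idgf with a digit, obst-, Cda with a digit or Peritrophin-, plus kkv, Chs2, serp, verm, Gasp, knk, rtv and mmy. The deposited tables held 38 such genes among 17187 genes or unnamed entries. RNA was sequenced from tuSz1, hopTum and w1118 larvae, with 3 libraries per genotype, each from 20 pooled larvae raised at 28 °C. tuSz1 is a melanotic tumour strain named in the series title for lost self-tolerance, hopTum carries an activating allele of the JAK kinase gene hopscotch (hop), and w1118 is a white-eyed laboratory strain used as the control. The labels give no larval age, no sex and no shared genetic background, so each comparison is between strains, and p-values measure the spread between pools of larvae.

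Chitin is a polymer of N-acetylglucosamine. In larvae it stiffens the cuticle of the epidermis and the lining of the trachea, and it forms the scaffold of the peritrophic matrix, the sheath that separates food from the midgut epithelium. Synthases extrude the chains, membrane and secreted proteins arrange them, deacetylases modify them, proteins with chitin-binding domains cross-link them to the matrix, and chitinases dissolve them, most of all at a moult when the old cuticle is shed. The imaginal disc growth factors have the fold of chitinases but lack their enzyme activity and are secreted into the blood.

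Total counts ran from 9552828 to 14517286 per library, and 3 counts were worth between 0.2 and 0.357 CPM, a limit that covers counting error only. CPM is a gene's count per 1000000 reads of its library, with library sizes adjusted by TMM factors. The 3 values of a genotype are given in the order of replicates 1 to 3. Of the 38 genes, 27 passed the filter on low counts and were tested among 9106 genes, and 11 did not. A gene could pass through the genotype where it was high, so counts over the 27 describe those genes and not the whole group. Values at or near 0 went with the gene models. The 20 genes with 2 or more listed transcripts had a median of 14% of their exon bases in only 1 transcript and in no other gene, against a median of 100% for the 18 genes with 1 listed transcript, and 10 of the 20 were tested against 17 of the 18. A gene listed at 0 is therefore not described as unexpressed. Library tuSz1 replicate 3 stood apart: the 6 salivary glue genes, which mark late larvae of the last instar, summed to 33.1 CPM there, against 56049 and 57462 CPM in tuSz1 replicates 1 and 2, 12427 to 16535 CPM in hopTum and 47710.5 to 61617 CPM in w1118. Where a call described below was lost without that library, the value without it is given, except for Cht2, where a range over several fits is given.

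Chitin genes changed in both directions in each mutant. Against w1118, 10 of the 27 tested genes passed an adjusted p of 0.05 in tuSz1 (edgeR quasi-likelihood test), with 6 higher and 4 lower, where 16.3% of all tested genes passed (9.98% higher and 6.33% lower). In hopTum 8 passed against w1118, with 4 higher and 4 lower, where the share over all tested genes was 18.1% (11.5% higher and 6.65% lower). Between tuSz1 and hopTum 5 passed, with 4 higher and 1 lower in tuSz1, where 9.66% of all tested genes passed (5.52% higher and 4.14% lower). Groups of 3 values were apart, with no overlap, for 14, 12 and 9 of the 27 genes in these comparisons, and for 38.6%, 39% and 29.1% of all tested genes. The median log2 fold change of the 27 genes was 0.52 in tuSz1 against w1118, -0.19 in hopTum against w1118 and 0.85 in tuSz1 against hopTum, and over all tested genes it was 0.08, -0.05 and 0.03 in the same comparisons. In whole larvae, fewer cells of a type and less RNA per cell cannot be told apart.

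The genes that rose in tuSz1 were Peritrophin-15a, obst-F, obst-G, obst-H, Cht8 and Idgf5, and those that fell were knk, Cht11, Cht2 and Cht5. In hopTum obst-G, obst-H, Idgf1 and Idgf5 rose, and knk, obst-A, Cht2 and Cht5 fell. Both comparisons share the w1118 libraries. The split of directions depended on scaling. Under total count scaling, which set the median of all genes at -0.70, -0.41 and -0.39 in the order tuSz1 against w1118, hopTum against w1118 and tuSz1 against hopTum, 3 were higher and 6 lower, 2 higher and 6 lower, and 3 higher and 3 lower. Over all tested genes the same scaling gave 433 higher and 1749 lower, 486 higher and 810 lower, and 389 higher and 1019 lower in that order. With the 50 most counted genes left out, or with DESeq2 size factors, the hopTum split against w1118 was 3 higher and 5 lower. Without tuSz1 replicate 3, 8 genes passed in tuSz1 against w1118, all of them among the 10, and 2 passed in tuSz1 against hopTum.

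**Figure D1:**
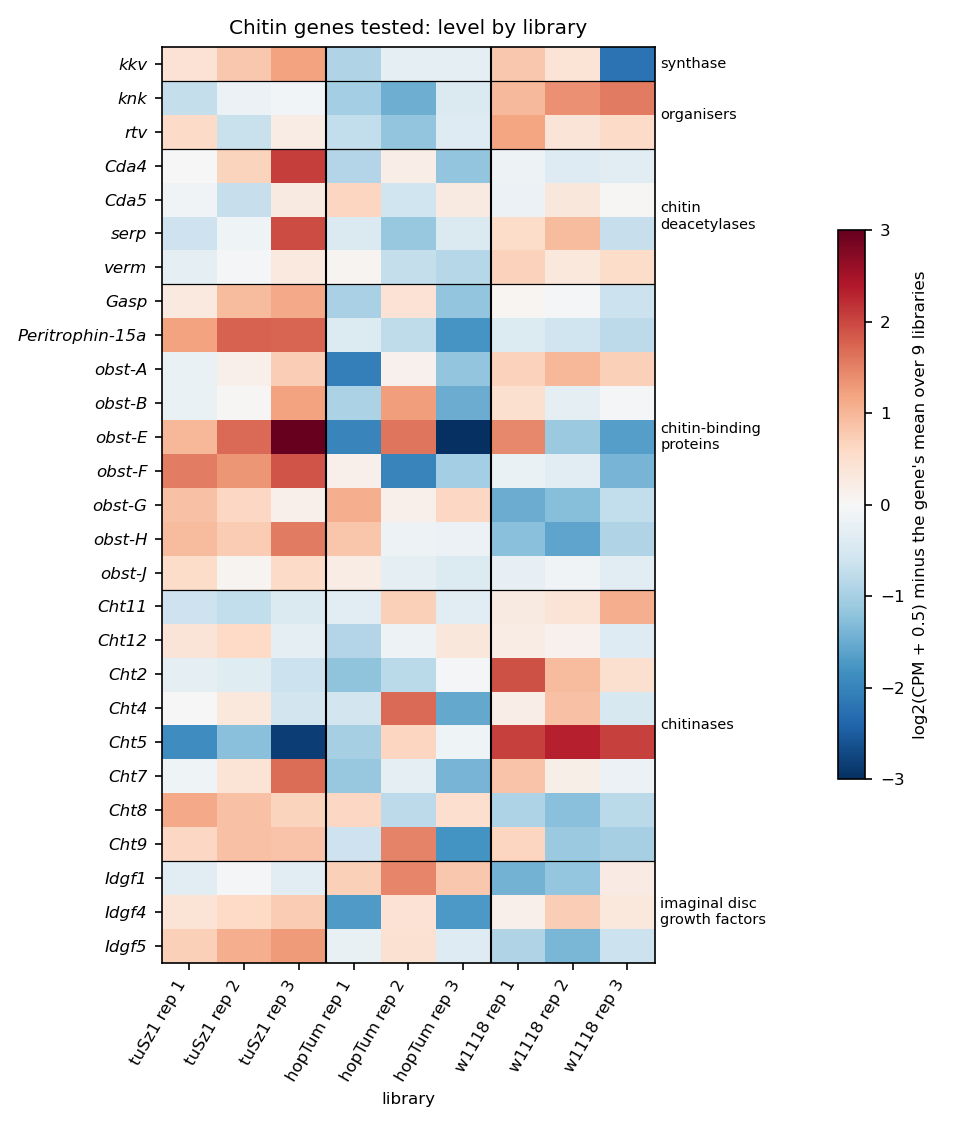
Level of the 27 tested chitin genes in each of the 9 libraries, as log2(CPM + 0.5) minus the gene's mean over all libraries, with genes grouped by role and libraries by genotype (colours end at 3 in either direction). Cht5 is above its mean in every w1118 library and below it in every tuSz1 library, and obst-E differs more between replicates of a genotype than any other gene shown.

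Few reads could be counted for the genes that make chitin. mmy, which encodes the enzyme that activates N-acetylglucosamine for the synthases, was not tested and had 0.951, 0.612 and 5.84 CPM in tuSz1, 0.204, 0.753 and 0.702 CPM in hopTum and 1.32, 0.4 and 0 CPM in w1118. The synthase kkv makes the chitin of the cuticle and trachea and had 3.04, 4.11 and 5.6 CPM in tuSz1, 0.919, 1.69 and 1.67 CPM in hopTum and 4.12, 3 and 0.0724 CPM in w1118. Its genotypes overlapped in both comparisons with w1118, while each tuSz1 value lay above each hopTum value. No comparison of kkv passed (edgeR), none was under an unadjusted p of 0.05, and the DESeq2 Wald test called none. Only 3.10% of the 5701 exon bases of kkv lie in a single transcript, and 1 of its 3 listed transcripts held all of its counts. Chs2, the synthase of the midgut, was listed at 0 in all 9 libraries, and 0.0665% of its exon bases are countable in that sense. Both synthases were thus counted over a small stretch of their exons.

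Of the proteins that arrange nascent chitin, knk was lower in both mutants. knk (knickkopf; dm6, 3R:10122365-10125664) encodes a protein that protects and orders new chitin fibres. It had 6.75, 9.97 and 10.7 CPM in tuSz1, 5.31, 3.77 and 8.34 CPM in hopTum and 22.7, 30.1 and 34.4 CPM in w1118. Every tuSz1 and hopTum value lay below every w1118 value. Against w1118 the log2 fold change was -1.67 (SE 0.38; adjusted p 0.0122) in tuSz1 and -2.32 (SE 0.39; adjusted p 0.00212) in hopTum (edgeR). The tuSz1 call was lost without w1118 replicate 3 (-1.53, adjusted p = 0.0516) or tuSz1 replicate 1 (-1.48, adjusted p = 0.0522). An antisense gene, asRNA:CR46038, overlaps knk and was at 0 in every library. Its partner in fibre order, rtv (retroactive), was counted in few reads, with 1.52, 0.3498 and 1.07 CPM in tuSz1, 0.306, 0.0942 and 0.527 CPM in hopTum and 2.57, 1.27 and 1.52 CPM in w1118, and did not pass in any comparison with edgeR. In hopTum its 3 values lay below the 3 of w1118, at -2.48 (SE 0.80; adjusted p 0.0517) on the log2 scale (edgeR), and the DESeq2 Wald test called that difference (adjusted p = 0.0175), as did 6 of 16 alternatives in all.

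None of the 4 tested chitin deacetylases passed in any comparison (edgeR). At an unadjusted p under 0.05 there was 1 in tuSz1 against w1118, 1 in hopTum against w1118 and 2 in tuSz1 against hopTum. Among all 9106 tested genes there were 2766, 2945 and 2190 in that order. The DESeq2 Wald test called 1, 0 and 1 of the 4, each time Cda4, and 1927, 2071 and 1341 of all tested genes. Cda4 (X:22583634-22632710) was the most counted of them, with 114.7, 183 and 483 CPM in tuSz1, 61.9, 132 and 50.3 CPM in hopTum and 102, 87.9 and 92.1 CPM in w1118. The tuSz1 values lay above the w1118 values but spread widely, with replicate 3 far above the other two. The log2 fold change was 1.47 (SE 0.50; adjusted p 0.0701) in tuSz1 against w1118, and without tuSz1 replicate 3 it was 0.66 (adjusted p = 0.31, edgeR). Against hopTum it was 1.67 (SE 0.51; adjusted p 0.0613) and 0.87 (adjusted p = 0.182) in the same fits. serp (serpentine) and verm (vermiform) set the length of tracheal tubes through luminal chitin. serp ran from 0.188 to 5.36 CPM over all libraries, with its highest value in tuSz1 replicate 3, and verm from 2.11 to 7.13 CPM. Each verm value in tuSz1 and hopTum lay below each w1118 value, and its adjusted p was 0.424 in tuSz1 and 0.112 in hopTum (edgeR). Cda5 ran from 2.1 to 6.03 CPM with overlapping genotypes, and Cda9 was not tested, at no more than 0.145 CPM.

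Of the 12 chitin-binding proteins listed, 9 were tested. In tuSz1 against w1118 4 rose and none fell, in hopTum against w1118 2 rose and 1 fell, and in tuSz1 against hopTum 2 rose and none fell. The shares over all tested genes were 9.98% higher and 6.33% lower, 11.5% higher and 6.65% lower, and 5.52% higher and 4.14% lower in these comparisons. Median log2 fold changes of the chitin-binding genes were 1.73, -0.07 and 1.05, against 0.08, -0.05 and 0.03 over all tested genes, and in hopTum 4 of the 9 lay above 0 and 5 below.

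Peritrophin-15a (2L:8395665-8396096) was the most abundant chitin gene and rose in tuSz1. It encodes a small protein with a chitin-binding domain of the kind found in the peritrophic matrix. It had 5116, 7565 and 7491 CPM in tuSz1, 1662, 1318 and 651 CPM in hopTum and 1667, 1465 and 1294 CPM in w1118. All 3 tuSz1 libraries lay above every other library, and hopTum overlapped w1118. The means were 6724 ± 1393 CPM in tuSz1, 1210.5 ± 514 in hopTum and 1475 ± 187 in w1118 (SD, n = 3 each). The log2 fold change in tuSz1 was 2.19 (SE 0.39; adjusted p 0.0033) against w1118 and 2.47 (SE 0.40; adjusted p 0.00291) against hopTum (edgeR), and both calls held in all 18 alternatives. In hopTum against w1118 it was -0.29 (SE 0.38; adjusted p 0.634). The gene alone held 56.6% to 73.8% of the counts of all 38 chitin genes in tuSz1, 31.3% to 48.9% in hopTum and 42.8% to 46.3% in w1118. The midgut marker Jon65Aiii, a digestive protease gene, was also higher in tuSz1, at 17098 ± 3047 CPM against 5932 ± 1612 in w1118 (log2 fold change 1.53 (SE 0.37; adjusted p 0.0151), edgeR), while Jon99Ci, another midgut protease gene, was lower (-1.73 (SE 0.49; adjusted p 0.0313)). Without tuSz1 replicate 3 the Jon99Ci value was -1.42 (adjusted p = 0.0949), and the Jon65Aiii call was lost under total count scaling and without w1118 replicate 2 or 3. Mal-A1 and alphaTry, a maltase and a trypsin gene, were lower in hopTum than in w1118 and higher in tuSz1 than in hopTum. The alphaTry call in hopTum against w1118, at -1.01 (SE 0.32; adjusted p 0.0465, edgeR), held in 8 of 18 alternatives, and that of Mal-A1 in all 18. The 6 midgut markers summed to 15796 to 22373 CPM in tuSz1, 3862 to 6339.8 in hopTum and 5609.8 to 9962 in w1118, and Jon65Aiii held most of the sum in each library. None of the 6 was at 0 in every library, but betaTry and Amy-p had no more than 0.147 and 0.262 CPM. Their part in the Peritrophin-15a difference was not tested. The neighbouring Peritrophin-15b, 724 bases away, was listed at 0 in all libraries and has no exon base free of other transcripts and genes.

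The genes of the obstructor family encode secreted proteins with chitin-binding domains. obst-F (3L:20200443-20201638) had 304, 265 and 389 CPM in tuSz1, 118, 26.4 and 51.8 CPM in hopTum and 91.9, 83.5 and 40.03 CPM in w1118. The 3 tuSz1 values lay above all others, and hopTum overlapped w1118. CG42833, which overlaps obst-F and could share reads with it, ran from 5.44 to 15.6 CPM. The obst-F log2 fold change in tuSz1 was 2.15 (SE 0.49; adjusted p 0.0129) against w1118 and 2.29 (SE 0.50; adjusted p 0.0149) against hopTum (edgeR). Without tuSz1 replicate 3 these were 1.99 (adjusted p = 0.0507) and 2.13 (adjusted p = 0.0528). The call against w1118 was also lost under total count scaling (1.34, adjusted p = 0.0555) and without w1118 replicate 3 (1.86, adjusted p = 0.0535), and that against hopTum without hopTum replicate 3 (2.08, adjusted p = 0.0611).

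obst-G and obst-H rose in both mutants. obst-G (3L:11952301-11953317) had 155, 129.7 and 93.1 CPM in tuSz1, 177, 92.7 and 128 CPM in hopTum and 29.4, 34.3 and 49.9 CPM in w1118. Every mutant library lay above every w1118 library, and the mutants overlapped. The log2 fold change against w1118 was 1.73 (SE 0.32; adjusted p 0.00365) in tuSz1 and 1.81 (SE 0.32; adjusted p 0.00284) in hopTum (edgeR). Between the mutants it was -0.08 (SE 0.31; adjusted p 0.907). Under total count scaling the tuSz1 value was 0.99 (adjusted p = 0.0785). obst-H (3L:15528265-15529243) had 109.6, 96.4 and 167 CPM in tuSz1, 101, 50.6 and 50.05 CPM in hopTum and 23.5, 18.5 and 29.97 CPM in w1118. Here too no mutant value overlapped w1118. Its log2 fold change was 2.37 (SE 0.35; adjusted p 0.000933) in tuSz1 and 1.49 (SE 0.34; adjusted p 0.012) in hopTum (edgeR), and 0.89 (SE 0.34; adjusted p 0.129) between the mutants. The hopTum call was lost without w1118 replicate 2 (1.33, adjusted p = 0.0622) or hopTum replicate 1 (1.01, adjusted p = 0.0693).

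obst-A is the family member best known from cuticle, where it forms a scaffold for chitin and its deacetylases. It had 31.8, 40.7 and 61.01 CPM in tuSz1, 8.48, 40.02 and 15.8 CPM in hopTum and 59.6, 73.01 and 60.3 CPM in w1118. It was the single chitin-binding gene to fall, in hopTum, at -1.58 (SE 0.47; adjusted p 0.0374) on the log2 scale against w1118 (edgeR), and hopTum replicate 2 stood well above the other hopTum libraries. The call was lost in the fit of only the 6 libraries compared and without w1118 replicate 1, w1118 replicate 2, w1118 replicate 3, hopTum replicate 1, hopTum replicate 3 or tuSz1 replicate 2 (adjusted p between 0.0531 and 0.11). Without hopTum replicate 2 it was -2.4 (adjusted p = 0.00312). In tuSz1 the log2 fold change of obst-A was -0.53 (SE 0.46; adjusted p 0.498) against w1118 and 1.05 (SE 0.47; adjusted p 0.194) against hopTum.

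Gasp, obst-B, obst-E and obst-J did not pass in any comparison (edgeR). Gasp, a chitin-binding protein of the tracheal lumen, had 160.4, 254 and 288 CPM in tuSz1, 66.9, 178 and 57.4 CPM in hopTum and 136, 125 and 84.3 CPM in w1118. The tuSz1 values lay above those of w1118 at 1.03 (SE 0.42; adjusted p 0.116) on the log2 scale, and the value was 1.22 (SE 0.42; adjusted p 0.0936) against hopTum (edgeR). obst-E (2L:5762553-5766142), which organises chitin in the larval cuticle and shapes the pupal case, had 254, 416 and 2533 CPM in tuSz1, 31.9, 390.2 and 2.81 CPM in hopTum and 346, 59.1 and 40.2 CPM in w1118. Its libraries spanned so wide a range within each genotype that no genotype stood apart, with adjusted p between 0.352 and 0.984 (edgeR). obst-B ran from 31.4 to 214 CPM, both within hopTum. obst-J had 503, 366 and 511 CPM in tuSz1, 405, 279.8 and 261 CPM in hopTum and 292, 319 and 271 CPM in w1118, and a log2 ratio of tuSz1 to w1118 at 0.65 (SE 0.27; adjusted p 0.13) (edgeR). Peritrophin-A was not tested and had 0.666, 0.3498 and 1.55 CPM in tuSz1, 0.511, 1.04 and 0 in hopTum and 0 in every w1118 library. obst-I was listed at 0 throughout, and 4.09% of its exon bases are free of the antisense gene asRNA:CR45829.

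**Figure D2:**
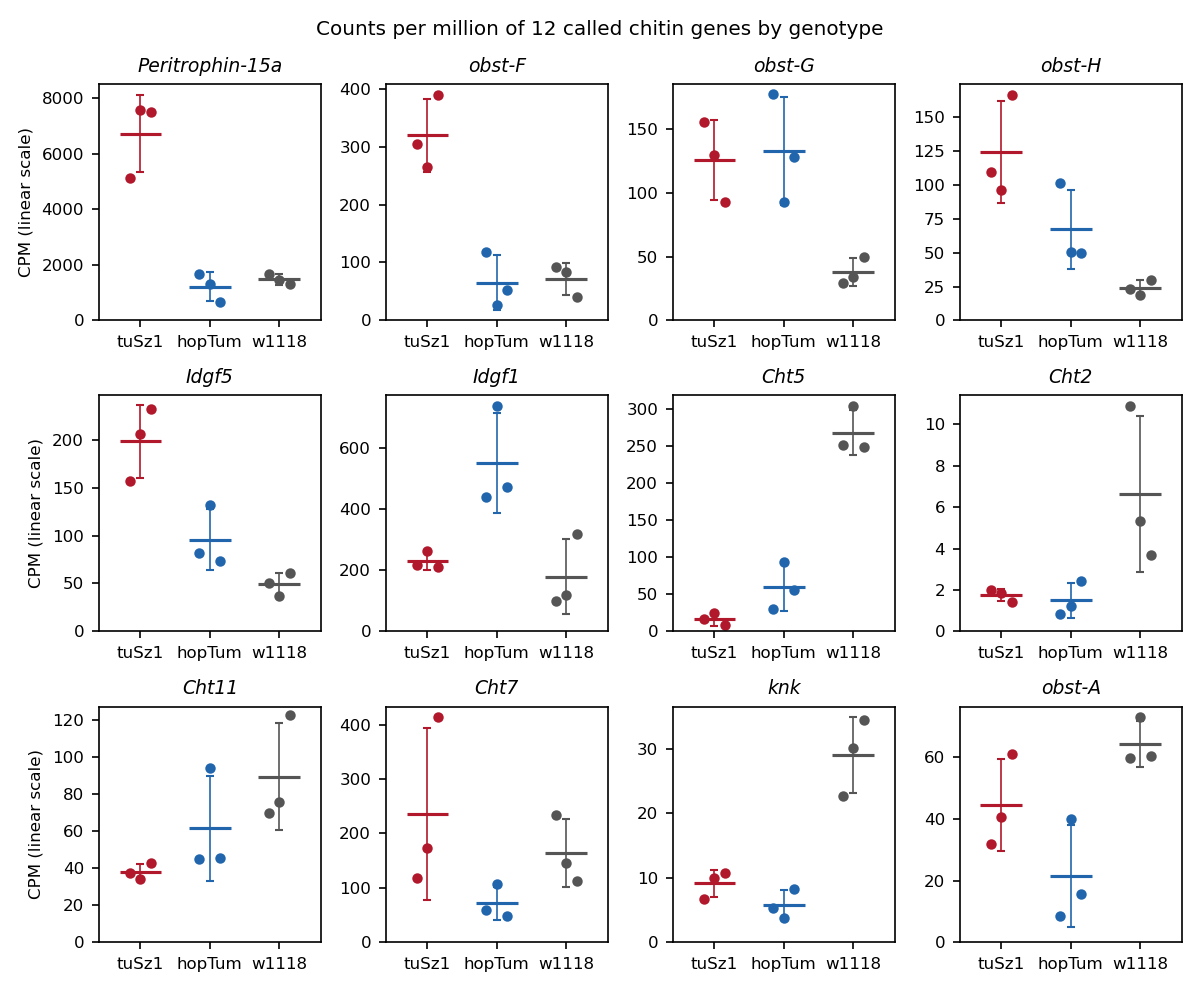
CPM of 12 chitin genes called in at least 1 comparison, by genotype (points are libraries, bars are means ± SD, n = 3 each, linear axes from 0). Peritrophin-15a and obst-F stand apart in tuSz1, obst-G and obst-H are higher in both mutants, and Cht5 and knk are lower in both.

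Among the 10 chitinases, 8 were tested. In tuSz1 against w1118 3 fell and 1 rose, in hopTum against w1118 2 fell and none rose, and between tuSz1 and hopTum 1 rose and 1 fell. The shares over all tested genes were 6.33% lower and 9.98% higher, 6.65% lower and 11.5% higher, and 5.52% higher and 4.14% lower. Median log2 fold changes of the chitinases were -0.03, -0.35 and 0.33.

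Cht5 (3R:13767549-13770732) had, in tuSz1 against w1118, the largest log2 fold change among the 27 tested chitin genes. It belongs to the group of secreted chitinases that in other insects digest the old cuticle at the moult. It had 16.1, 24.7 and 7.98 CPM in tuSz1, 30.03, 93.6 and 55.2 CPM in hopTum and 251, 303 and 249 CPM in w1118. The 3 genotypes did not overlap, with tuSz1 lowest and w1118 highest. The means were 16.3 ± 8.38 CPM in tuSz1, 59.6 ± 32.01 in hopTum and 268 ± 30.6 in w1118 (SD, n = 3 each). Relative to w1118 the log2 fold change was -4.04 (SE 0.48; adjusted p 0.000212) in tuSz1 and -2.17 (SE 0.44; adjusted p 0.00646) in hopTum (edgeR), and both calls held in all 18 alternatives. tuSz1 was also below hopTum, at -1.87 (SE 0.44; adjusted p 0.0208) on the log2 scale, a call lost without hopTum replicate 2 (-1.38, adjusted p = 0.0681) or tuSz1 replicate 1 (-1.85, adjusted p = 0.0654) and in the fit of only the 6 libraries compared (-1.9, adjusted p = 0.0565).

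Genes that respond to the moulting hormone ecdysone were lower in the same libraries. Of 12 listed ecdysone response genes 9 were tested, and 6 fell in tuSz1 and 5 in hopTum against w1118, while 3 were lower in tuSz1 than in hopTum and none rose in any comparison (edgeR), where 6.33%, 6.65% and 4.14% of all tested genes were lower. Their medians were -3.62, -2.52 and -1.52. The 11 in the files summed to 101 to 212 CPM in tuSz1, 419.6 to 560.4 in hopTum and 1943 to 2974 in w1118. ImpE3, an ecdysone-induced gene of imaginal discs, had 8.18, 11.7 and 9.06 CPM in tuSz1, 23.1, 37.3 and 23 CPM in hopTum and 126, 124 and 283 CPM in w1118. Its log2 fold change against w1118 was -4.20 (SE 0.40; adjusted p 3.88e-05) in tuSz1 and -2.67 (SE 0.37; adjusted p 0.00051) in hopTum (edgeR). Eip75B, a nuclear receptor gene of the early hormone response, had 60.1, 34.9 and 72.4 CPM in tuSz1, 107, 94.3 and 189 CPM in hopTum and 326, 267 and 339 CPM in w1118, at -2.48 (SE 0.35; adjusted p 0.000678) in tuSz1 and -1.26 (SE 0.34; adjusted p 0.0244) in hopTum on the same scale. Hr3, Hr4, Eip78C and ImpE2 were the others to fall in tuSz1, all called in every alternative that gave a value, and Hr3, Eip78C and ImpE2 in hopTum, where ImpE2 was called in 8 of 18 alternatives. ImpE3, Eip75B and Eip78C were the 3 lower in tuSz1 than in hopTum. Without tuSz1 replicate 3 that difference was -1.48 (adjusted p = 0.0533) for ImpE3 and -3.81 (adjusted p = 0.0575) for Eip78C, and Eip75B was called in 9 of 17 alternatives. Of the 6 glue genes 5 overlapped between tuSz1 and w1118, with tuSz1 replicate 3 below every w1118 library for each gene. In tuSz1 replicates 1 and 2, Sgs1, Sgs5 and Sgs7 lay above every w1118 library and Sgs3 below. Sgs4 and Sgs8 overlapped w1118 in those replicates. In hopTum all 6 glue genes had a log2 fold change below 0 against w1118, with a median of -1.88. For 5 of them every hopTum value lay below every w1118 value. Over all tested genes, 39% had no overlap between hopTum and w1118, in either direction. The glue genes summed to 12427 to 16535 CPM in hopTum and 47710.5 to 61617 CPM in w1118. No glue gene passed in any comparison with edgeR or the DESeq2 Wald test, with 0 at an unadjusted p under 0.05. Both tests took the spread of a gene from all 9 libraries, and tuSz1 replicate 3 had only 0.238 to 16.1 CPM per glue gene. Fitted to all 9 libraries, they therefore could not decide whether glue genes differed between hopTum and w1118. Glue genes were not followed in the fits that leave out tuSz1 replicate 3. The prepupal genes Edg78E, Edg84A and Edg91 were at no more than 0.263 CPM in sum in every library. The part of larval stage or hormone response in the Cht5 difference was not tested.

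Cht2 and Cht11 also fell. Cht2 was lowly counted, with 1.997, 1.84 and 1.43 CPM in tuSz1, 0.817, 1.22 and 2.46 CPM in hopTum and 10.9, 5.33 and 3.69 CPM in w1118. All mutant values lay below all w1118 values, which themselves spread widely. Against w1118 the log2 fold change was -1.91 (SE 0.56; adjusted p 0.0387) in tuSz1 and -2.13 (SE 0.57; adjusted p 0.0244) in hopTum (edgeR). The tuSz1 call was lost without w1118 replicate 1, w1118 replicate 2, tuSz1 replicate 1, tuSz1 replicate 2 or tuSz1 replicate 3 (adjusted p between 0.0768 and 0.149), and the hopTum call without w1118 replicate 1, w1118 replicate 2, hopTum replicate 1 or hopTum replicate 2 (adjusted p between 0.0531 and 0.0969). Cht11 (X:6847877-6849517) had 37.3, 33.9 and 42.5 CPM in tuSz1, 44.8, 93.9 and 45.6 CPM in hopTum and 69.5, 75.8 and 123 CPM in w1118. The tuSz1 values lay below all others and were tight, and hopTum overlapped w1118. Its log2 fold change was -1.24 (SE 0.34; adjusted p 0.0264) in tuSz1 against w1118 (edgeR). It was lost without w1118 replicate 2, w1118 replicate 3, tuSz1 replicate 1 or tuSz1 replicate 2 (adjusted p between 0.0536 and 0.118). In hopTum it was -0.54 (SE 0.33; adjusted p 0.285).

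Cht7 (3L:3090985-3106958), which acts in the assembly of the cuticle matrix, differed between the mutants. It had 118, 173 and 414 CPM in tuSz1, 58.9, 107 and 48.9 CPM in hopTum and 233, 146 and 114 CPM in w1118. All tuSz1 values lay above all hopTum values, and tuSz1 replicate 3 was the highest library. In tuSz1 against hopTum the log2 fold change was 1.72 (SE 0.48; adjusted p 0.0436) (edgeR), and without tuSz1 replicate 3 it was 1.03 (adjusted p = 0.127). The call held in 7 of 18 alternatives and was lost without w1118 replicate 2, w1118 replicate 3, hopTum replicate 1, hopTum replicate 3, tuSz1 replicate 2 or tuSz1 replicate 3 (adjusted p between 0.0507 and 0.162). Against w1118 the log2 fold change was 0.52 (SE 0.46; adjusted p 0.517) in tuSz1 and -1.20 (SE 0.47; adjusted p 0.101) in hopTum.

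Cht8 was called higher in tuSz1 from few reads. It had 30, 26 and 16 counts in tuSz1, 18, 4 and 19 in hopTum and 4, 2 and 5 in w1118, which is 2.85, 2.27 and 1.91 CPM in tuSz1, 1.84, 0.377 and 1.67 CPM in hopTum and 0.294, 0.133 and 0.362 CPM in w1118. In CPM no mutant value overlapped w1118. For hopTum this rested on scaling, since replicate 2 had 4 counts (0.377 CPM) and w1118 replicate 3 had 5 counts (0.362 CPM). The tuSz1 call had an adjusted p of 0.0157 and the hopTum value one of 0.0572 (edgeR). The tuSz1 call was lost under total count scaling (adjusted p = 0.0542) and without w1118 replicate 2 (2.8, adjusted p = 0.0729), and the DESeq2 Wald test also called hopTum (adjusted p = 0.0274). Cht8 lies in a cluster with Cht12, Cht4 and Cht9 on chromosome arm 2R and overlaps Cht12 by 35 bases, and Cht12 ran from 23.1 to 64.9 CPM with overlapping genotypes. Cht4 had 14.7, 18.7 and 10.01 CPM in tuSz1, 10.01, 49.3 and 4.83 CPM in hopTum and 17.1, 27.9 and 10.4 CPM in w1118, and Cht9 had 14.7, 17.8 and 17.5 CPM in tuSz1, 5.92, 27.4 and 2.37 CPM in hopTum and 14.9, 4.07 and 4.49 CPM in w1118. In both genes hopTum replicate 2 was the highest library of all and hopTum replicate 3 the lowest of the hopTum libraries, and none of the cluster apart from Cht8 passed (edgeR). Cht10 was not tested, with 2, 5 and 5 counts in tuSz1, 2, 2 and 2 in hopTum and 7, 23 and 29 in w1118. Cht6 was listed at 0 in every library, and none of its 16205 exon bases lies in only 1 of its 7 transcripts.

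The imaginal disc growth factors that could be tested rose or did not pass. Of 6 listed, 3 were tested, with 1 higher in tuSz1 and 2 higher in hopTum against w1118, and 1 higher in tuSz1 than in hopTum (edgeR), where 9.98%, 11.5% and 5.52% of all tested genes were higher. Their medians were 0.35, 0.96 and 1.05.

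Idgf5 was graded across the genotypes. It had 157, 206 and 232 CPM in tuSz1, 82.2, 132 and 73.1 CPM in hopTum and 50.9, 36.7 and 60.7 CPM in w1118. No genotype overlapped another, with tuSz1 highest and w1118 lowest. The log2 fold change against w1118 was 2.0 (SE 0.30; adjusted p 0.00109) in tuSz1, called in all 18 alternatives, and 0.96 (SE 0.30; adjusted p 0.0437) in hopTum, called in 3 of 18. tuSz1 against hopTum gave 1.05 (SE 0.30; adjusted p 0.0457) (edgeR), called in 4 of 18, and without tuSz1 replicate 3 it was 0.92 (adjusted p = 0.103). The hopTum call was lost without w1118 replicate 1, w1118 replicate 2, w1118 replicate 3, hopTum replicate 1, hopTum replicate 2, tuSz1 replicate 1 or tuSz1 replicate 2 (adjusted p between 0.0533 and 0.178), and the call between the mutants without w1118 replicate 1, w1118 replicate 2, hopTum replicate 1, hopTum replicate 3, tuSz1 replicate 1, tuSz1 replicate 2 or tuSz1 replicate 3 (adjusted p between 0.0532 and 0.177).

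Idgf1 (2L:16445278-16446793) was instead highest in hopTum. It had 216, 263 and 209 CPM in tuSz1, 441, 738 and 471 CPM in hopTum and 100.4, 119 and 319.6 CPM in w1118. Every hopTum value lay above every other library, and tuSz1 overlapped w1118, where replicate 3 was well above the other two. Against w1118 the log2 fold change was 0.35 (SE 0.41; adjusted p 0.631) in tuSz1 and 1.62 (SE 0.42; adjusted p 0.0216) in hopTum (edgeR), and -1.26 (SE 0.42; adjusted p 0.0817) between tuSz1 and hopTum, which the DESeq2 Wald test called (adjusted p = 0.0338). The hopTum call was lost without w1118 replicate 1 (1.33, adjusted p = 0.061), w1118 replicate 2 (1.39, adjusted p = 0.0973) or hopTum replicate 2 (1.35, adjusted p = 0.0662) and under total count scaling (1.2, adjusted p = 0.0772). The blood cell marker PPO3, made by lamellocytes, was at 1552 ± 148 CPM in tuSz1, 11507 ± 1563 in hopTum and 5.27 ± 2.41 in w1118 (SD, n = 3 each). PPO3 and ItgaPS4 were called higher in both mutants and lower in tuSz1 than in hopTum. The other lamellocyte marker tested, cher, was called in no comparison (edgeR). Its log2 fold change against w1118 was -0.10 (SE 0.61; adjusted p 0.928) in hopTum and -0.86 (SE 0.62; adjusted p 0.402) in tuSz1. The marker atilla was listed at 0 in every library. The 4 lamellocyte markers summed to 2513 to 2681 CPM in tuSz1, 15548 to 17504 in hopTum and 15.7 to 18.9 in w1118. In the mutants nearly all of the sum was PPO3 and ItgaPS4. Of 2 fat body markers tested, both storage protein genes, Lsp1gamma was called higher in both mutants, at 81768 ± 39142 CPM in tuSz1, 38599 ± 18787 in hopTum and 8615 ± 4359 in w1118. Its tuSz1 call held in all 17 alternatives. The hopTum call held in 13 of 17 and was lost without w1118 replicate 1 or 2 or hopTum replicate 1 or 2. Lsp1alpha was called in neither mutant (edgeR), with 27126, 41458 and 70442 CPM in tuSz1, 2088, 20166 and 725 CPM in hopTum and 5674, 6574 and 9666 CPM in w1118, and the DESeq2 Wald test called it in tuSz1 (adjusted p = 0.0104). Of 3 plasmatocyte markers tested, NimC1 was called higher in both mutants, and Sr-CI was called higher in hopTum. The NimC1 call in tuSz1 held in 7 of 17 alternatives, and without tuSz1 replicate 3 the value was 1.16 (adjusted p = 0.0639). eater went the other way and was not called, at -0.26 (SE 0.51; adjusted p 0.762) in hopTum and -0.90 (SE 0.52; adjusted p 0.278) in tuSz1 (edgeR). The marker Hml was listed at 0 in every library. The part of blood cells or fat body in the Idgf levels was not tested. Idgf4 ran from 6.84 to 10.7 CPM in tuSz1 and w1118 libraries and had 1.53, 8.47 and 1.49 CPM in hopTum. Idgf2, Idgf3 and Idgf6 were not tested, at no more than 1.01 CPM. Idgf1, Idgf2 and Idgf3 lie side by side, with gaps of 536 and 398 bases.

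**Figure D3:**
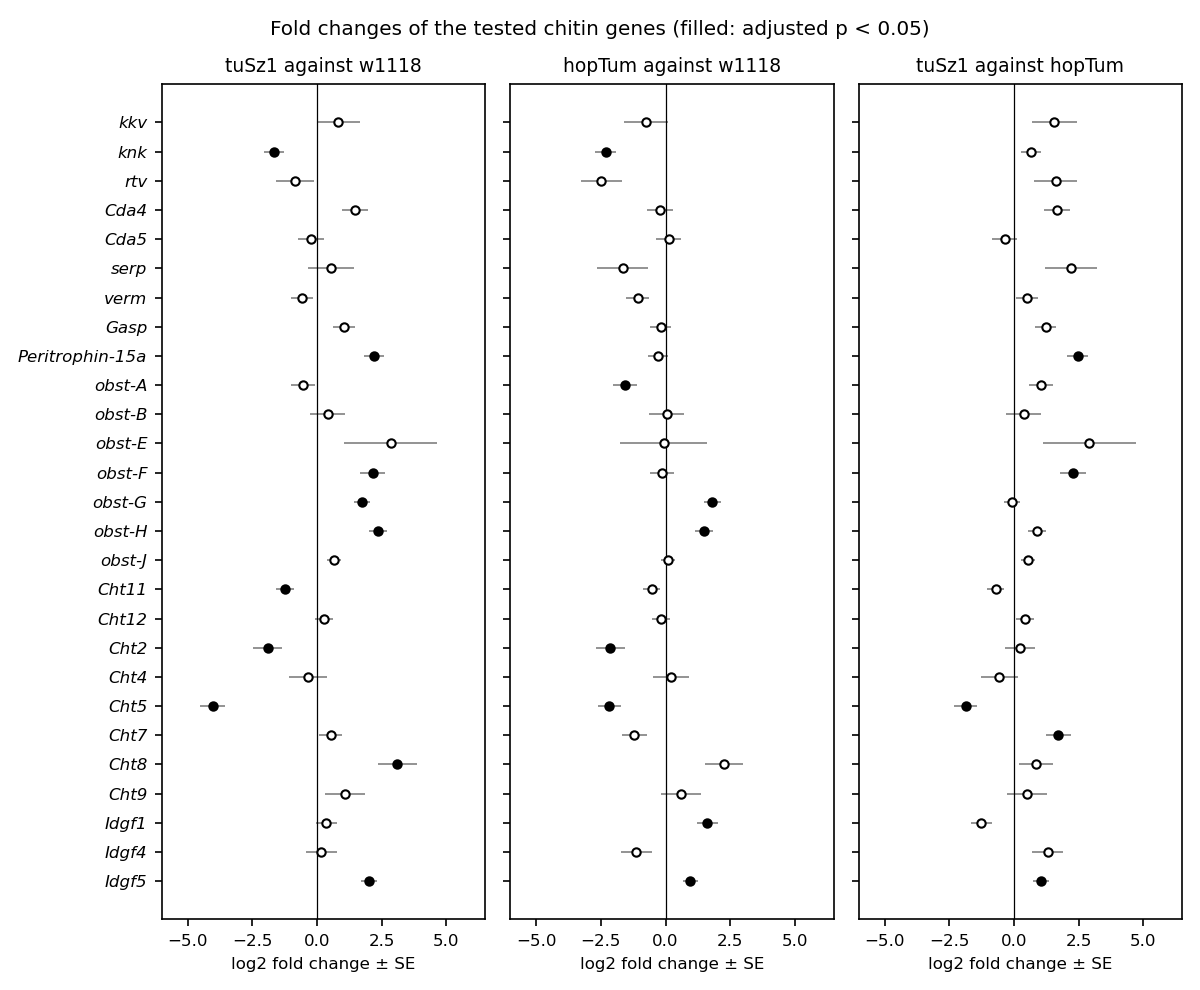
Log2 fold change ± SE of the 27 tested chitin genes in each comparison, with filled points for an adjusted p under 0.05. Cht5 lies left of 0 in all 3 panels, at -4.04 in tuSz1 against w1118, and obst-E has the widest error bars.

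Levels could be set side by side, per kilobase of exon, for the 15 genes with at least 95% of exon bases countable. Peritrophin-15a was highest in each genotype and did not overlap the next gene, at 18626 ± 3859 CPM per kb in tuSz1, 3353 ± 1424 in hopTum and 4086 ± 517 in w1118 (SD, n = 3 each). The next was obst-J in tuSz1, at 372 ± 65.7 CPM per kb, Idgf1 in hopTum, at 381 ± 113, and obst-J in w1118, at 238 ± 19.6. obst-J and obst-F overlapped in tuSz1, as did Idgf1 and obst-J in hopTum. Cht5 held rank 14 of 15 in tuSz1, at 7.67 ± 3.95 CPM per kb, rank 11 in hopTum, at 28.1 ± 15.1, and rank 3 in w1118, at 126 ± 14.4. Cht8 was last in each genotype. Between those ends most neighbours in the order overlapped, from Idgf1 to Cht11 in tuSz1 and from obst-G to Cht4 in hopTum. Together the 38 genes took 0.654% to 0.864% of counts in tuSz1, 0.248% to 0.351% in hopTum and 0.402% to 0.465% in w1118.

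**Figure D4:**
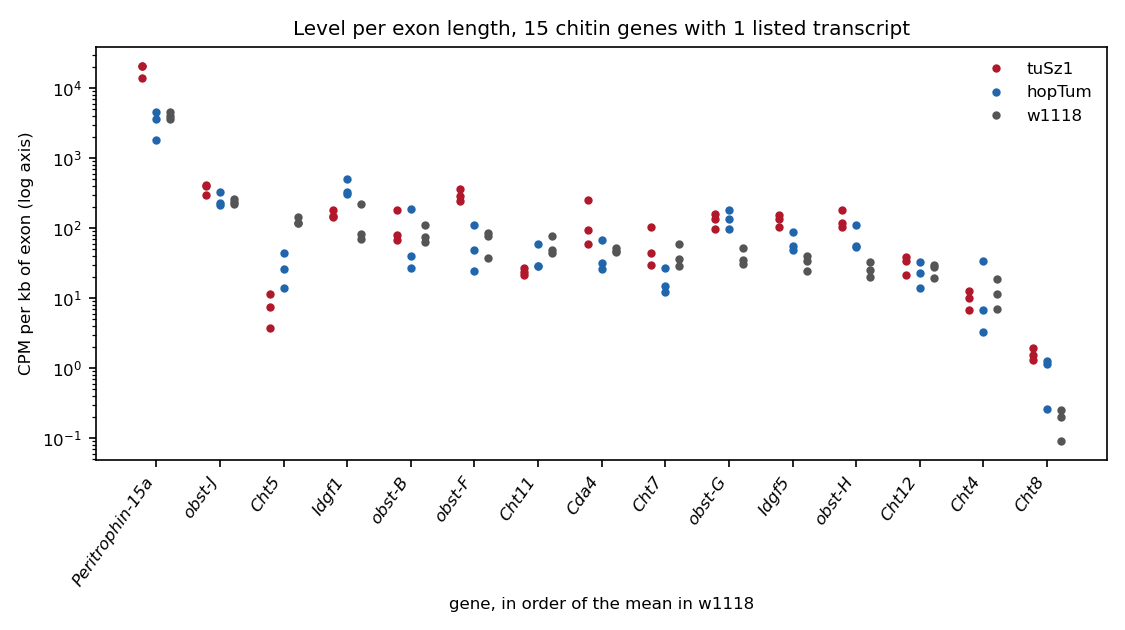
Level per kilobase of exon (log axis) of 15 chitin genes with 1 listed transcript, in order of their mean in w1118, with 3 libraries per genotype as points. Peritrophin-15a lies above all others in each genotype, and Cht5, ranked 3 in w1118, drops to rank 14 in tuSz1.

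Many chitin genes had their extreme value within a genotype in the same library. tuSz1 replicate 3 held the highest of the 3 tuSz1 values for 17 of the 27 tested genes (63.0%, against 45.2% of all tested genes), and hopTum replicate 2 the highest hopTum value for 14 (51.9%, against 33.0%). hopTum replicate 3 held the lowest for 13 (48.1%, against 27.7%), and tuSz1 replicate 1 the lowest tuSz1 value for 14 (51.9%, against 34.2%). In w1118, replicate 1 held the highest value for 13 (48.1%, against 36.3%) and replicate 3 the lowest for 12 (44.4%, against 35.5%). The spread within genotypes, as the pooled SD of log2(CPM + 0.5), had a median of 0.579 over the 27 genes and 0.484 over all tested genes. obst-E had the widest, at 2.42, which is wider than 99.7% of tested genes, followed by Cht9 at 1.12 and Cht4 at 1.06. The cuticle genes Vajk2 and Vajk3 had their highest values in the same library as obst-E, Cda4 and Cht7, tuSz1 replicate 3. Other cuticle genes were divided. Lcp3, Lcp4 and Ccp84Ad were also highest in that library, while Lcp1, Lcp2, Cpr64Aa and Vajk4 were not. Lcp1, Cpr64Aa and Vajk4 had their lowest tuSz1 value there. Vajk2 had 957, 1388 and 7712 CPM in tuSz1, 390.0, 1379 and 313 CPM in hopTum and 1760.2, 244 and 632 CPM in w1118, and Vajk3 had 482, 901 and 4192 CPM in tuSz1, 231, 801 and 175 CPM in hopTum and 1027, 234 and 389 CPM in w1118. Both were lower in hopTum replicate 3 than in hopTum replicate 2, as obst-E was. These libraries hold pools whose stage the labels do not give, and the part of stage in this spread was not tested.

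**Figure D5:**
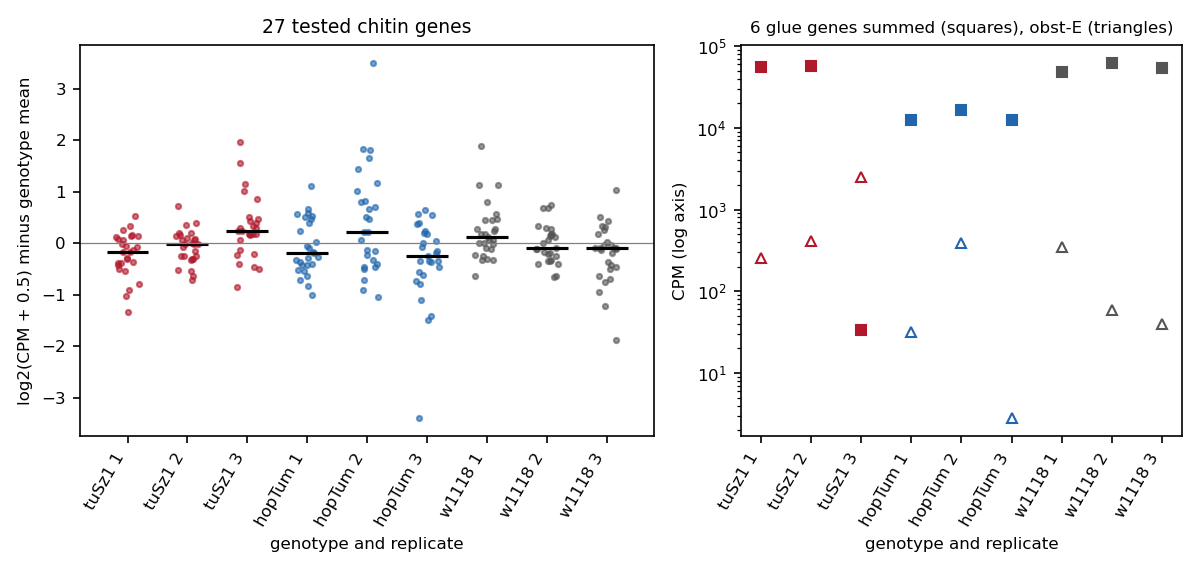
Left, deviation of each tested chitin gene from its genotype mean, as log2(CPM + 0.5), by library, with the median as a bar. Right, summed CPM of 6 glue genes (squares) and CPM of obst-E (triangles) on a log axis, where tuSz1 replicate 3 has the highest obst-E value, 2533 CPM, and the lowest glue sum, 33.1 CPM.

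Genes that supply chitin precursors were examined as a related group. N-acetylglucosamine for chitin comes from the hexosamine pathway. Of 8 listed genes 7 were tested, with 3 higher in tuSz1, 2 higher and 1 lower in hopTum against w1118, and 1 higher in tuSz1 than in hopTum (edgeR), where 9.98%, 11.5% and 5.52% of all tested genes were higher and 6.65% lower in hopTum. The medians were 1.21, 0.78 and -0.06. Gfat2, an enzyme of the committed step, had 282, 248 and 323 CPM in tuSz1, 461, 335 and 338 CPM in hopTum and 179, 107 and 81 CPM in w1118. No mutant value overlapped w1118, and the log2 fold change was 1.21 (SE 0.32; adjusted p 0.0221) in tuSz1 and 1.63 (SE 0.32; adjusted p 0.00524) in hopTum (edgeR). nst (nesthocker), the mutase of the pathway, had 377, 294 and 601 CPM in tuSz1, 603, 806 and 451 CPM in hopTum and 219.8, 139 and 122 CPM in w1118, with log2 fold changes against w1118 of 1.40 (SE 0.36; adjusted p 0.0211) in tuSz1 and 1.95 (SE 0.37; adjusted p 0.0041) in hopTum (edgeR). Under total count scaling the tuSz1 values of Gfat2 and nst were 0.42 and 0.56 and no longer passed. Without tuSz1 replicate 3 the value was 1.12 (adjusted p = 0.0572) for Gfat2 and 1.07 (adjusted p = 0.0726) for nst. Both tuSz1 calls were also lost without w1118 replicate 2 or 3, and each passed in 12 of 18 alternatives, while both hopTum calls passed in all 18. Gfat1, the other enzyme of the committed step, went the other way in hopTum and had 11.03, 10.1 and 16.6 CPM in tuSz1, 2.66, 3.01 and 2.46 CPM in hopTum and 10.4, 8.73 and 8.47 CPM in w1118. It was -1.76 (SE 0.36; adjusted p 0.00689) in hopTum against w1118 and 2.21 (SE 0.37; adjusted p 0.00348) in tuSz1 against hopTum (edgeR). Gnpnat, the acetyltransferase of the pathway, was called higher in tuSz1 from few reads, at 2.66, 2.01 and 1.79 CPM in tuSz1 and no more than 0.368 CPM in w1118. That call held in 9 of 16 alternatives, and without tuSz1 replicate 3 it was 4.18 (adjusted p = 0.0572).

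Cofactors of chitin deposition formed a further group, with 8 of 11 tested. In tuSz1 against w1118 1 fell, in hopTum 1 rose and 1 fell, and in tuSz1 against hopTum 2 were lower (edgeR), where the shares of all tested genes were 6.33% lower, 11.5% higher and 6.65% lower, and 4.14% lower. kune (kune-kune), a claudin of septate junctions, had 109, 118 and 104 CPM in tuSz1, 447, 493 and 366 CPM in hopTum and 94.04, 113 and 193 CPM in w1118. The hopTum values lay above all others, at 1.71 (SE 0.30; adjusted p 0.00273) on the log2 scale against w1118, and tuSz1 against hopTum gave -1.98 (SE 0.30; adjusted p 0.00216) (edgeR). pio (piopio), an apical matrix protein, had 17.9, 17.6 and 24.9 CPM in tuSz1, 10.1, 11.2 and 11.8 CPM in hopTum and 46.2, 38 and 25.9 CPM in w1118 and fell in hopTum, with -1.73 (SE 0.32; adjusted p 0.00366) (edgeR). Vajk4, a cuticle protein gene, was lowly counted, at 0.5704, 0.3498 and 0 CPM in tuSz1, 2.66, 2.17 and 2.897 in hopTum and 5.29, 5.67 and 2.61 in w1118, and was lower in tuSz1 than in either other genotype, with the call against hopTum held in 12 of 17 alternatives. reb and exp, which act with kkv in chitin deposition, did not pass with edgeR. The DESeq2 Wald test called reb lower in hopTum than in w1118 (adjusted p = 0.0344, against 0.074 with edgeR), exp higher in tuSz1 than in hopTum (adjusted p = 0.0236, against 0.0738) and pio lower in tuSz1 than in w1118 (adjusted p = 0.0311, against 0.078). reb ran from 23.4 to 156 CPM and exp from 2.14 to 15.3 CPM. Of the 3 hexosaminidase genes that cut chitin oligomers 1 was tested, Hexo2, with 152, 142 and 195 CPM in tuSz1, 176, 421 and 165 CPM in hopTum and 126, 78.7 and 101 CPM in w1118. It rose by 1.32 (SE 0.37; adjusted p 0.0282) in hopTum on the log2 scale (edgeR), and in tuSz1 the value was 0.68 (SE 0.36; adjusted p 0.232). The hopTum call held in 12 of 18 alternatives and was lost, among others, under total count scaling (0.89), with the 50 most counted genes left out and without w1118 replicate 2, w1118 replicate 3 or hopTum replicate 2 (adjusted p up to 0.117).

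Markers of tissues that make chitin were measured beside these genes. The 6 larval cuticle markers summed to 271 to 612 CPM in tuSz1, 68.4 to 347 in hopTum and 211 to 473 in w1118. None of them passed against w1118 with edgeR, with 2 at an unadjusted p under 0.05 and 2 called by the DESeq2 Wald test in each mutant. Of all 9106 tested genes 2766 in tuSz1 and 2945 in hopTum were under that p, and the Wald test called 1927 and 2071. The Wald calls of cuticle markers went opposite ways. Ccp84Ad and Lcp4 were higher in tuSz1, and Ccp84Ad and Lcp1 were lower in hopTum. The median log2 fold change of the 6 markers against w1118 was 1.17 in tuSz1 and -0.93 in hopTum (edgeR). Over all tested genes it was 0.08 and -0.05. Ccp84Ad was called higher in tuSz1 than in hopTum, at 9.22, 8.05 and 53.3 CPM in tuSz1 and no more than 0.409 CPM in hopTum. Of the tracheal markers 1 could be tested, Cpr49Ag, with a difference of tuSz1 from hopTum of 2.13 (SE 0.54; adjusted p 0.0328) on the log2 scale, which was 1.31 (adjusted p = 0.0747) without tuSz1 replicate 3. The tracheal marker trh was listed at 0 in every library, btl had no more than 0.102 CPM and dys was not in the files. These lists were chosen with results of these data known, and their part in the chitin gene differences was not tested.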

How the data were processed

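RNA of whole larvae was measured in 9 libraries. Per the submitters' processing notes, which name tools but give no settings, the authors used FastQC 0.11.8, HISAT2 2.1.0 and featureCounts 1.6.3 with the build dm6. The deposited values are raw read counts per RefSeq transcript accession. The strand setting is not given in the sources used here, so reads of overlapping genes on opposite strands cannot be told apart.

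Of 34111 entries, 33753 matched the RefSeq gene table (Release 6 plus ISO1 MT) with their version and 146 without it, and 212 unmatched entries, with 6.37% of counts, were kept unnamed. Counts were summed per gene symbol. The bare symbol Mur was searched for and matched 0 genes. Coordinates and exon structures are those of dm6 and the matching gene annotation.

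The test was edgeR 4.0.16 (R 4.3.3) with TMM factors (0.578 to 1.369), its default filter by genotype and its robust quasi-likelihood test, fitted to all 9 libraries, Benjamini-Hochberg adjusted over 9106 genes within a comparison, threshold 0.05. SE was taken as the size of a log2 fold change over the root of its F statistic. The script was tested on simulated data. Members, gene lists and tests were chosen with earlier results of these data known. Chitin genes called in at least 1 comparison were named with the value of each library, and fold changes were given for those with a mean of at least 5 CPM in some genotype. Genes of the other lists were named where called, and those given with values were chosen after their values were seen. Alternatives were DESeq2 1.42.0 size factors and Wald test, scaling to total counts, leaving out the 50 most counted genes, no filter, a mean count of at least 50, fits of the 6 libraries concerned, a replicate block, single-transcript genes only, a minimum log2 change of 1, and each library left out. Figures used Python 3.11.15 and matplotlib 3.10.9.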

Additional observations from a re-analysis of the deposited data

How the results depend on the processing

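Of 23 called fold changes of chitin genes, 8 passed in every alternative and 15 were lost in some, and 0 changed direction. Of 43 called fold changes of the related and ecdysone genes 18 were lost in some, and of 21 of the tissue and blood cell markers 6. Of 58 uncalled fold changes of chitin genes 24 were followed, those of genes called elsewhere or under an unadjusted p of 0.05, and of these 12 passed in some alternative and 7 changed direction in some. The values that changed direction were under total count scaling -0.39 for Cht7, -0.42 for Idgf1 and -0.16 for obst-J in tuSz1 against w1118 and -0.22 for Cht2 in tuSz1 against hopTum. With a library left out, obst-F in hopTum against w1118 ran from -0.96 to 0.24, Peritrophin-15a in hopTum against w1118 from -0.62 to 0.01, Cht7 in tuSz1 against w1118 from -0.17 to 0.86, Cht2 in tuSz1 against hopTum from -0.06 to 0.71 and obst-G in tuSz1 against hopTum from -0.28 to 0.19. The number of chitin genes called with a library left out ran from 7 to 12 in tuSz1 against w1118, from 3 to 10 in hopTum against w1118 and from 2 to 9 in tuSz1 against hopTum. Without w1118 replicate 2, 3 passed in hopTum against w1118, and without hopTum replicate 2, 9 passed in tuSz1 against hopTum, all higher. Single-transcript genes only gave 5 in hopTum against w1118 and 3 in tuSz1 against hopTum. DESeq2 size factors, no filter on low counts and the 6 libraries compared each gave 3 in tuSz1 against hopTum. Over all genes, 1485 passed in tuSz1 against w1118 (786 to 1701 with a library left out, 959 with single-transcript genes only), 1649 in hopTum against w1118 (823 to 1999, 1032) and 880 in tuSz1 against hopTum (507 to 891, with 1408 under total count scaling and 1341 by the DESeq2 Wald test). The causes were not tested. Fewer genes were tested under the single-transcript setting. Counts of few reads, as in kkv, rtv, mmy, Cht8 and Cht10, limit what could be detected.

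Libraries with the same replicate number share only a number: the correlation of their deviations from the genotype means ran from -0.351 to 0.165 over 9 pairs. With the replicate number as a block, 8 chitin genes passed in tuSz1 against w1118, 6 in hopTum against w1118 and 3 in tuSz1 against hopTum, and over all genes 986, 1131 and 504.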

Other observations

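Mucin-related genes, many of which encode secreted proteins with chitin-binding domains, were named by symbol (Muc or Mur with a digit). Of 18 such genes 14 were tested. In tuSz1 against w1118 5 rose and 2 fell, in hopTum against w1118 2 rose and 3 fell, and in tuSz1 against hopTum 4 were higher and none lower, with medians of 0.83, -0.09 and 0.57 (edgeR). Over all tested genes 9.98% were higher and 6.33% lower, 11.5% higher and 6.65% lower, and 5.52% higher and 4.14% lower in these comparisons. Muc96D was the most abundant, with 10095, 8359 and 14551 CPM in tuSz1, 5169, 1699 and 2745 CPM in hopTum and 3573, 3401 and 2209.7 CPM in w1118. The tuSz1 libraries lay above all others, by 1.85 (SE 0.45; adjusted p 0.0164) on the log2 scale against w1118 and 1.78 (SE 0.45; adjusted p 0.0281) against hopTum (edgeR). The first call held in 14 of 17 alternatives, lost under total count scaling and without w1118 replicate 2 or 3, and the second in 11 of 17, with 1.53 (adjusted p = 0.0595) without tuSz1 replicate 3. Muc68Ca had 2084, 1555 and 2913 CPM in tuSz1, 275, 184 and 253 CPM in hopTum and 314, 347 and 267 CPM in w1118. It was 2.82 (SE 0.34; adjusted p 0.00022) in tuSz1 against w1118 and 3.20 (SE 0.34; adjusted p 0.000252) against hopTum (edgeR), and both calls held in all 18 alternatives. Muc68E was low in both mutants, with 13.2, 6.03 and 13.1 CPM in tuSz1, 10.4, 54.99 and 42.2 CPM in hopTum and 443, 313 and 1047 CPM in w1118. Its log2 fold change against w1118 was -5.80 (SE 0.75; adjusted p 0.000694) in tuSz1 and -4.06 (SE 0.68; adjusted p 0.00338) in hopTum (edgeR). Mur29B also fell in both, with 222, 279 and 302 CPM in tuSz1, 263, 463 and 331 CPM in hopTum and 692, 801 and 2037 CPM in w1118, at -2.14 (SE 0.43; adjusted p 0.00582) in tuSz1 and -1.74 (SE 0.42; adjusted p 0.0154) in hopTum (edgeR). Muc11A rose in hopTum, with 1134, 1250.2 and 1636 CPM in tuSz1, 2292, 2528 and 1304 CPM in hopTum and 732, 680.3 and 518 CPM in w1118, at 1.67 (SE 0.34; adjusted p 0.0066) (edgeR). In tuSz1 its value was 1.06 (SE 0.34; adjusted p 0.051), which the DESeq2 Wald test called (adjusted p = 0.0332). Muc26B had 2077, 1720.3 and 2621 CPM in tuSz1, 1599, 572 and 964 CPM in hopTum and 701, 988 and 928 CPM in w1118. It was called higher in tuSz1 than in w1118, at 1.29 (SE 0.39; adjusted p 0.0402) (edgeR), in 5 of 18 alternatives, and without tuSz1 replicate 3 it was 1.13 (adjusted p = 0.1). The others called were Muc30E and Mur82C in tuSz1 against w1118, Muc30E and Muc55B in hopTum against w1118, and Muc55B and Mur82C in tuSz1 against hopTum, and these 3 genes had at most 4.41 CPM in any library.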
